A study of Mus musculus with 8 samples.

Results

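Homeostatic and membrane-bound chemokines were followed in the hearts of mice given lipopolysaccharide (LPS), a bacterial outer-membrane glycolipid that sets off systemic inflammation. The members were Cxcl12, Cxcl13, Cxcl14, Cxcl16 and Cx3cl1, chosen by symbol, and every gene probe whose RefSeq accession mapped to one of them was used. These 5 genes had 11 probes, of 15596 named genes and 35078 gene probes on the array. Female C57BL/6 mice aged 12 weeks, kept on chow, were injected intraperitoneally, 4 with LPS at 5 mg/kg and 4 with saline. At 8 h the hearts were perfused with PBS and taken, so both groups share the injection, the perfusion and the single time point. RNA from each heart went on a 1-colour spotted oligonucleotide array, 1 array per mouse. A heart sample mixes many cell types, and here fewer cells of a type and less RNA per cell cannot be told apart. Atrial markers, given below, differed widely between the samples of both groups, so the samples may not hold the same parts of the heart.

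Chemokines are small secreted proteins that guide leukocytes through G protein-coupled receptors. Homeostatic chemokines are made without an inflammatory stimulus and place cells in tissues. Cxcl12, made by endothelial cells, pericytes and fibroblasts, holds haematopoietic cells in their niche through Cxcr4 and is also bound by the atypical receptor Ackr3. Cxcl13 draws B cells into lymphoid follicles through Cxcr5. Cxcl14 is made constitutively by epithelia and stroma. Cxcl16 and Cx3cl1 (fractalkine) differ from the rest in being made as transmembrane proteins on a mucin-like stalk, from which the proteases Adam10 and Adam17 can release them. Cxcl16 binds Cxcr6, and Cx3cl1, found on activated endothelium, binds Cx3cr1 of monocytes and macrophages.

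Values are normalized log2 intensities, and a change is the log2 difference of LPS minus saline with its standard error (SE). A probe was tested only if 4 or more of the 8 arrays had it above background, as was so for 14914 probes and for all 11 member probes. Calls rest on limma with Benjamini-Hochberg adjustment over those 14914 probes at 0.05. Of all tested probes 17.5% were called, 8.59% higher and 8.89% lower with LPS. Of the member probes 5 were called higher, 2 lower and 4 not called. The lead probe of a gene is the one with the highest mean over the 8 arrays. Of the lead probes of all tested genes 19.2% were called. By lead probes Cxcl13, Cxcl16 and Cx3cl1 were higher and Cxcl12 was lower, and the lead probe of Cxcl14 was not called. When arrays were scaled by their median over all gene probes, in place of quantile normalization, 24.2% of the called probes were higher in place of 49.1%, and the median change of all tested probes was -0.31 in place of -0.05. Relative to that median the changes of the lead probes of Cxcl12, Cxcl13, Cxcl14, Cxcl16 and Cx3cl1 were then -2.45, 1.86, 0.75, 1.06 and 0.90. On each array the median signal of all gene probes (12 to 32 units) lay under the background limit of that array (25.9 to 40.5 units). With scaling by the median of the tested probes, 52.3% of the called probes were higher and the median change was 0.02. Gene probes above background made up 37.3% to 42.6% in LPS hearts and 39.7% to 46.9% in saline hearts. The cardiomyocyte markers Myh6, Tnnt2, Tnni3, Actc1, Myl2, Myl3 and Ryr2, 7 of 7 listed, were above background on all 8 arrays.

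**Figure D1:**
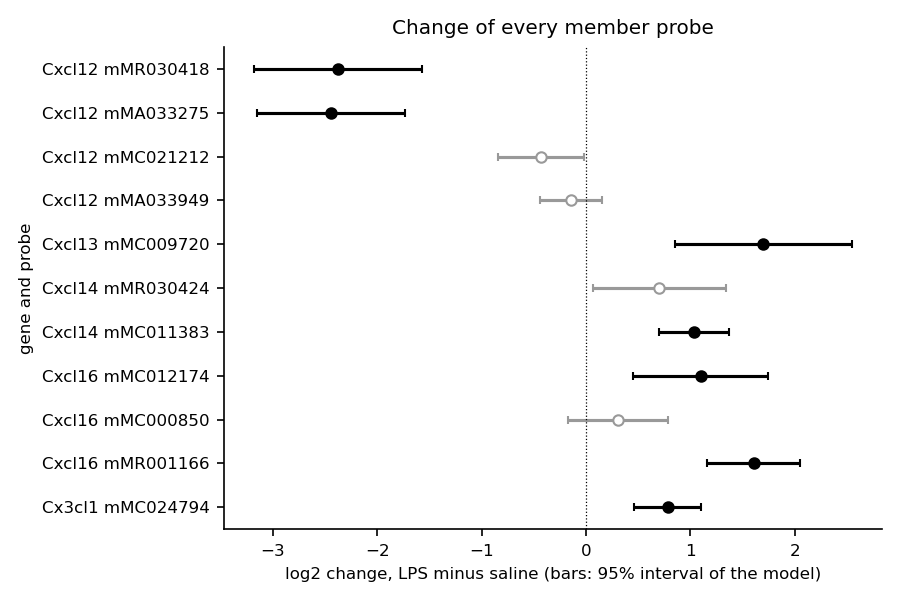
Change of each of the 11 member probes (x axis, log2 LPS minus saline) with the 95% interval of the limma model over 4 LPS and 4 saline arrays. Filled points passed an adjusted p of 0.05. Both bright Cxcl12 probes lie at -2.38 and -2.44, and the called probes of the other genes lie between 0.78 and 1.70.

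The stretch just before a listed start of each gene, where general transcription factors bind, was read for 4 of the 5 genes from RefSeq (GRCm38.p6). Cxcl16 is named only. Capitals mark matches on either strand to the GC box GGGCGG, the TATA box TATAAA, the CCAAT box CCAAT, the core of a gamma-activated site TTCNNNGAA and a kappaB site. They are shown so that the member that was lower with LPS can be read beside those that were higher. Each line gives the 250 bases before the start, 5′ to 3′ on the gene's strand.
Cxcl12 (chr6:117168285-117168534, plus strand): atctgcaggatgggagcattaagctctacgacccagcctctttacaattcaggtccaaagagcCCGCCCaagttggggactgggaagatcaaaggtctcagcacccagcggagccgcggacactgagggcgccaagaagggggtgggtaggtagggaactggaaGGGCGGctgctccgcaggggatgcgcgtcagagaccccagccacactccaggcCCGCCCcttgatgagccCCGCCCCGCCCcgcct
Cxcl13 (chr5:95956689-95956938, plus strand): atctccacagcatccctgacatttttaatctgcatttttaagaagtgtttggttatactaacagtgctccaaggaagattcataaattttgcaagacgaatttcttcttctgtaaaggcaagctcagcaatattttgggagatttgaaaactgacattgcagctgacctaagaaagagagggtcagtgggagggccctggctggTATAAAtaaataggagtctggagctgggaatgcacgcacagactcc
Cxcl14 (chr13:56296552-56296801, minus strand): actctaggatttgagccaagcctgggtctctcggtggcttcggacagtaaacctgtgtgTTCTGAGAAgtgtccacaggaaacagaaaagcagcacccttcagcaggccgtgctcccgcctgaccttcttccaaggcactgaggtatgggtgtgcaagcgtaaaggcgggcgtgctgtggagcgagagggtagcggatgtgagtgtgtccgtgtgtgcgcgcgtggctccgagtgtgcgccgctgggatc
Cx3cl1 (chr8:94771930-94772179, plus strand): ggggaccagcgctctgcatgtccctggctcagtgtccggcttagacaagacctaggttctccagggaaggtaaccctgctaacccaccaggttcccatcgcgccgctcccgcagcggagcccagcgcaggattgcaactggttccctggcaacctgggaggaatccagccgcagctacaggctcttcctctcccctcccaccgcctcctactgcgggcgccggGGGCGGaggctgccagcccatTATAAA
The Cxcl12 window holds 5 GC boxes, of which the last pair shares 1 base, and no TATA box. The Cxcl13 window holds no GC box and 1 TATA box, beginning 46 bases before the start. The Cx3cl1 window holds 1 GC box and, in its last 6 bases, 1 TATA box. The Cxcl14 window belongs to 1 of the starts listed for that gene and lies inside the gene's span of 56288643 to 56296811. It holds 1 core of a gamma-activated site, beginning 191 bases before that start. No window held a CCAAT box or a kappaB site. Among 32851 RefSeq windows of the same length, 32.7% hold a GC box, 12.4% a TATA box, 33.8% a CCAAT box, 7.0% the gamma-activated core and 7.3% a kappaB site. Guanine and cytosine make up 64.4% of the bases for Cxcl12, 42.0% for Cxcl13, 59.6% for Cxcl14 and 64.8% for Cx3cl1, against a median of 52.4%. A match is a description of these letters and was not tied to the binding of any factor.

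Cxcl12 (chromosome 6, 117168535 to 117181368, GRCm38.p6), the ligand of Cxcr4, was the one member that fell. Its lead probe mMR030418 read 10.10, 10.49, 11.84 and 9.96 in LPS mice 1 to 4 and 12.74, 12.77, 13.07 and 13.32 in saline mice 1 to 4. Every LPS array lay below every saline array, and LPS 3 was the highest of the LPS arrays. The mean fell from 12.97 ± 0.28 (SD, n = 4) to 10.60 ± 0.86 (n = 4), a change of -2.38 (SE 0.36, limma adjusted p = 0.00194, 95% interval -3.18 to -1.57), which is 5.19-fold.

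A second bright probe, mMA033275, gave the same picture of 2 groups that do not overlap. It read 10.03, 10.21, 11.63 and 10.13 in LPS mice 1 to 4 and 12.91, 13.21, 12.67 and 12.96 in saline mice 1 to 4. Its change was -2.44 (SE 0.32, limma adjusted p = 0.000811), and LPS 3 was again the array nearest to saline. Without LPS 3 the changes of the lead and the second probe were -2.79 and -2.82. The median spot stood 5432 to 15965 intensity units above local background with saline for the second probe and 637 to 2469 with LPS.

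The remaining pair of Cxcl12 probes stood near background and was not called. Probe mMC021212 stood 28 to 316 units above local background over the 8 arrays and had a change of -0.43 (SE 0.19, limma adjusted p = 0.143), with overlapping groups. Probe mMA033949 stood 39 to 120 units above it and had a change of -0.14 (SE 0.13, limma adjusted p = 0.497; 0.03 under median scaling over the tested probes). The first 3 probes carry the accession of 1 Cxcl12 transcript and the fourth that of another; the positions of the probes within them are not used here. The offset of 50 shrinks changes of dim probes, and with plain background subtraction these probes gave -0.80 (adjusted p = 0.0986) and -0.27 (adjusted p = 0.447). Per array, the changes of the lead probe and of the fourth probe differed by -2.23, with a two-sided exact permutation p of 0.0286. That is the smallest p that 70 arrangements of 4 against 4 arrays allow, and adjusted over the 10 pairs of probes of 1 gene it was 0.0714. The 2 bright probes differed from each other by 0.06 (exact permutation p = 0.857).

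The arrays fall into technical sets that overlap with the groups. LPS 2 to 4 and saline 3 and 4 were scanned on the first day, LPS 1 and saline 2 on the second and saline 1 on the third. LPS 2 to 4 came from one series of array numbers and LPS 1 and all saline arrays from another, so for LPS 2 to 4 the series and the treatment cannot be told apart. Within the first scan day the change of the Cxcl12 lead probe was -2.43 (limma adjusted p = 0.0539, 3 LPS and 2 saline arrays). The LPS arrays of that day were all of one series and its saline arrays of the other, here and for the other genes. Within the second array series, with LPS 1 as the only LPS array, the change was -2.88. With scan day as a block it was -2.50 (limma adjusted p = 0.00803). The 4 arrays without the mark redip, of unknown meaning here, gave -1.93 (limma adjusted p = 0.26), and on them none of the 7 called member probes passed (limma adjusted p 0.104 to 0.441). The second probe was likewise not called within the first scan day (-2.16, limma adjusted p = 0.0528).

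**Figure D2:**
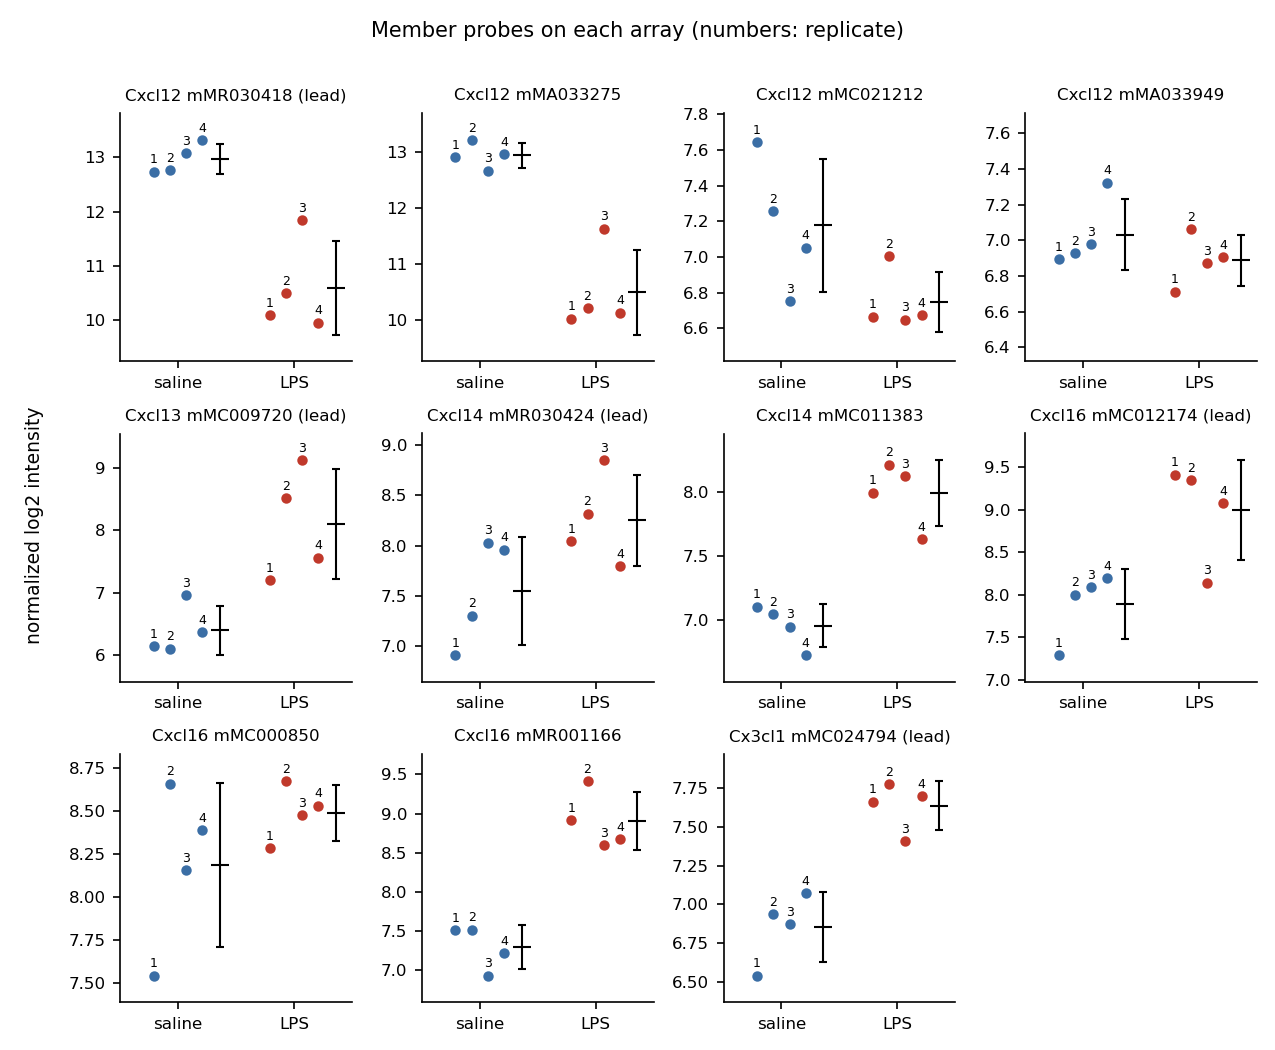
Normalized log2 intensity of every member probe on each array (y axis; each panel has its own range), blue for saline and red for LPS, with the replicate number above each point and the mean ± SD at the side. LPS lies apart below saline for the first pair of Cxcl12 probes, and apart above it for Cxcl13, Cxcl14 mMC011383, Cxcl16 mMR001166 and Cx3cl1.

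Cxcl13 (chromosome 5, 95956939 to 95961068), the B cell-attracting chemokine, rose with LPS. Its only probe, mMC009720, read 7.20, 8.52, 9.12 and 7.56 in LPS mice 1 to 4 and 6.15, 6.11, 6.96 and 6.37 in saline mice 1 to 4. All LPS arrays lay above all saline arrays, with LPS 3 highest, and only 1 saline array was above background. The probe met the filter of 4 arrays by its 4 LPS arrays, and was not tested when 6 arrays were required. The mean rose from 6.40 ± 0.40 (SD, n = 4) to 8.10 ± 0.88 (n = 4), a change of 1.70 (SE 0.38, limma adjusted p = 0.0136, 95% interval 0.85 to 2.55). The size rests on the background treatment, being 3.35 with plain subtraction and 2.26 with an offset of 16. Within the first scan day the change was 1.73 (limma adjusted p = 0.083). Within the second array series, with LPS 1 as the only LPS array, it was 0.80. The call ended when all gene probes were tested without the filter (limma adjusted p = 0.05005), where 7.10% of 35078 probes were called.

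Cxcl14 (chromosome 13, 56288643 to 56296811), a stromal chemokine, was called on 1 of its 2 probes. Its lead probe mMR030424 read 8.05, 8.32, 8.85 and 7.80 in LPS mice 1 to 4 and 6.91, 7.30, 8.03 and 7.96 in saline mice 1 to 4. LPS 4 lay below saline 3 and saline 4, and the change of 0.70 (SE 0.29, limma adjusted p = 0.123) was not called. Probe mMC011383 read 8.00, 8.21, 8.12 and 7.63 in LPS mice 1 to 4 and 7.10, 7.05, 6.95 and 6.72 in saline mice 1 to 4.

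On that second probe the groups did not overlap. Its change was 1.04 (SE 0.15, limma adjusted p = 0.0016). Within the first scan day, where array series and treatment coincide, it was 1.15 (limma adjusted p = 0.0377). Within the second array series, with LPS 1 as the only LPS array, it was 1.04. With plain background subtraction it was 1.61, and under median scaling over all gene probes 0.76 (limma adjusted p = 0.055). The change of the lead probe was smaller by 0.33 on the log2 scale (-0.33, exact permutation p = 0.371, adjusted p = 0.444 over 10 pairs). With mean in place of median spot brightness the lead probe passed the threshold (0.93, limma adjusted p = 0.0264).

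Cxcl16 (chromosome 11, 70454389 to 70459984), the transmembrane ligand of Cxcr6, rose on 2 of its 3 probes. The lead probe mMC012174 read 9.41, 9.35, 8.14 and 9.07 in LPS mice 1 to 4 and 7.29, 8.00, 8.09 and 8.20 in saline mice 1 to 4. LPS 3 lay among the saline arrays, so the groups overlapped. The change was 1.10 (SE 0.29, limma adjusted p = 0.0276), and the call was lost when any of LPS 1, LPS 2, LPS 4, saline 1 and saline 2 was left out (limma adjusted p 0.0573 to 0.0824). The change was 0.71 within the first scan day (limma adjusted p = 0.272) and 0.92 with scan day as a block (limma adjusted p = 0.0753). Within the second array series, with LPS 1 as the only LPS array, it was 1.52. The call also ended under median scaling over all gene probes (0.75, limma adjusted p = 0.106).

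On probe mMR001166 the Cxcl16 groups did not overlap. It read 8.91, 9.42, 8.60 and 8.67 in LPS mice 1 to 4 and 7.51, 7.52, 6.93 and 7.22 in saline mice 1 to 4. Every LPS array exceeded every saline array by this probe, LPS 3 included. The change was 1.61 (SE 0.20, limma adjusted p = 0.000688), 3.04-fold. It was 1.82 within the first scan day, where array series and treatment coincide (limma adjusted p = 0.0255). With LPS 1 as the only LPS array, the second array series gave 1.62. The third probe, mMC000850, had overlapping groups and a change of 0.30 (SE 0.22, limma adjusted p = 0.366; -0.08 under median scaling over all gene probes). Its change was smaller than that of mMR001166 by 1.30 (-1.30, exact permutation p = 0.0286, adjusted p = 0.0714 over 10 pairs). All 3 probes carry the same RefSeq accession.

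Cx3cl1 (chromosome 8, 94772180 to 94782427), the transmembrane ligand of Cx3cr1, rose with LPS on a dim probe. Its only probe, mMC024794, read 7.66, 7.78, 7.41 and 7.70 in LPS mice 1 to 4 and 6.54, 6.94, 6.87 and 7.07 in saline mice 1 to 4. No LPS array reached down to a saline array, and LPS 3 was again the lowest of its group. The mean rose from 6.86 ± 0.23 (SD, n = 4) to 7.64 ± 0.16 (n = 4), a change of 0.78 (SE 0.14, limma adjusted p = 0.0053, 95% interval 0.46 to 1.10). The probe stood 49 to 75 units above local background with saline and 89 to 143 with LPS. With plain background subtraction the change was 1.34. Within the first scan day it was 0.66 (limma adjusted p = 0.0786), and within the second array series, with LPS 1 as the only LPS array, 0.81.

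Between members, the change of Cxcl12 differed from those of Cxcl13, Cxcl14, Cxcl16 and Cx3cl1 by -4.08, -3.08, -3.47 and -3.16 on the log2 scale. Each of these 4 differences had an exact permutation p of 0.0286, the smallest the design allows, and an adjusted p of 0.0714 over 10 pairs, which does not pass 0.05. The change of Cxcl13 exceeded that of Cxcl14 by 1.00 (exact permutation p = 0.0571, adjusted p = 0.114). The other 5 pairs had exact permutation p from 0.143 to 0.886. Over the 11 member probes, the LPS arrays lay wholly above the saline arrays in 4 and wholly below in 2. Over all tested probes the corresponding shares are 10.4% and 11.9%.

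**Figure D3:**
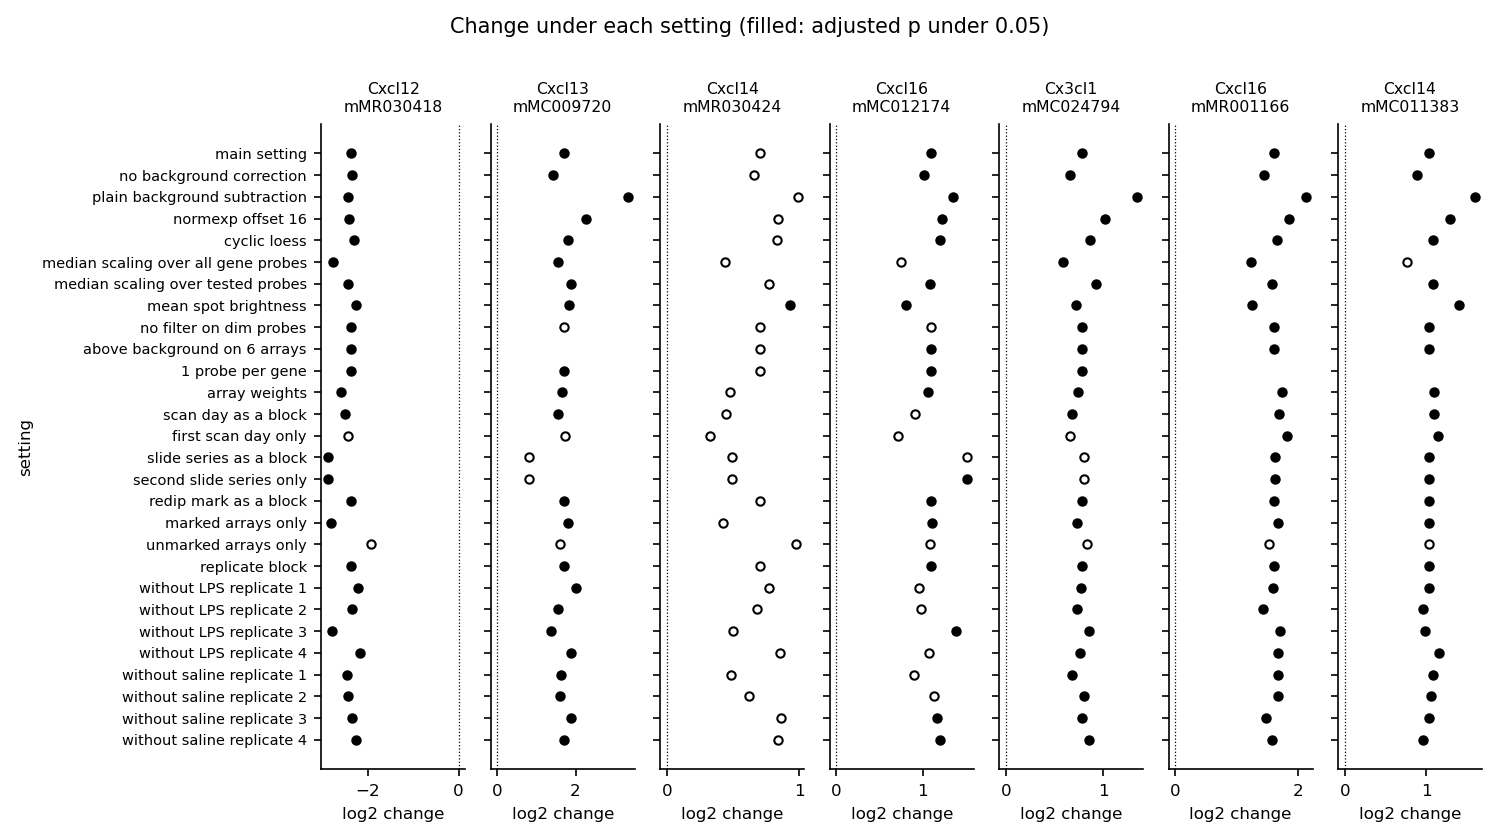
Log2 change (x axis, LPS minus saline) of the 5 lead probes and of the second called probes of Cxcl16 and Cxcl14 under each processing setting (y axis); filled points passed an adjusted p of 0.05. Within each panel the direction is the same under every setting, and no panel has a call on the unmarked arrays.

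The signalling receptors Cxcr4, Cxcr5, Cxcr6 and Cx3cr1 were under the background filter and were not tested. Ackr3, the atypical receptor of Cxcl12, was tested, with a change of 0.28 (SE 0.11, limma adjusted p = 0.103) and its groups not overlapping. Under median scaling over the tested probes Ackr3 passed, at 0.48 (limma adjusted p = 0.0413). Cxcr4, the receptor of Cxcl12, was above background on 3 saline arrays and no LPS array, and read 6.08, 6.00, 5.89 and 6.00 in LPS mice 1 to 4 and 6.45, 6.72, 6.40 and 6.68 in saline mice 1 to 4. Cx3cr1, the receptor of Cx3cl1, was likewise above background on 3 saline arrays and no LPS array, and read 5.88, 5.97, 6.05 and 5.87 with LPS and 6.42, 6.68, 6.57 and 6.50 with saline. For both receptors every LPS array lay below every saline array. Since their LPS values were not above background, no size of a difference is given. Cxcr5 and Cxcr6, the receptors of Cxcl13 and Cxcl16, were not above background on any of the 8 arrays by any of their probes, which sets no level for them.

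Proteases that shed or trim these ligands were mostly not called, and their inhibitors moved in both directions. Of 12 listed genes 10 were tested, 3 rose, 1 fell and 6 were not called, with a median change of 0.17. Over lead probes of all 8874 tested genes 9.60% were called higher and 9.61% lower, with a median of -0.05. The sheddases Adam10 and Adam17 had changes of -0.34 (SE 0.18, limma adjusted p = 0.232) and 0.15 (SE 0.13, limma adjusted p = 0.488). Rhbdf2, an iRhom that carries Adam17 to the cell surface, rose by 0.43 (SE 0.13, limma adjusted p = 0.0416), a call lost without any 1 array except saline 2 (limma adjusted p 0.061 to 0.107) and under median scaling over the tested probes (limma adjusted p = 0.0761). Mmp14, a membrane-bound matrix protease, rose by 1.09 (SE 0.22, limma adjusted p = 0.00856). The gelatinases Mmp2 and Mmp9, which can cleave Cxcl12, had changes of -0.53 (SE 0.29, limma adjusted p = 0.250) and 0.19 (SE 0.13, limma adjusted p = 0.334).

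Dpp4, a peptidase that removes the amino-terminal dipeptide of Cxcl12, was above background on 4 saline arrays and no LPS array, so it entered the test through the saline arrays alone. It was at least 1.12-fold lower with LPS by its bound, and was not called (limma adjusted p = 0.105). Timp1, an inhibitor of matrix proteases, rose by 4.40 (SE 0.32, limma adjusted p = 2.93e-05). It read 12.14, 12.13, 10.71 and 11.22 in LPS mice 1 to 4 and 7.66, 6.84, 6.95 and 7.17 in saline mice 1 to 4, the 2 groups lying far apart. Timp2 fell by 0.95 (SE 0.25, limma adjusted p = 0.0283), a call lost without LPS 2, saline 1, saline 2 or saline 4 (limma adjusted p 0.05026 to 0.0758). Timp3, an inhibitor of Adam17, had a change of 0.43 (SE 0.20, limma adjusted p = 0.170). The neutrophil proteases Ctsg and Elane, which can degrade Cxcl12, were not above background on any array.

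**Figure D4:**
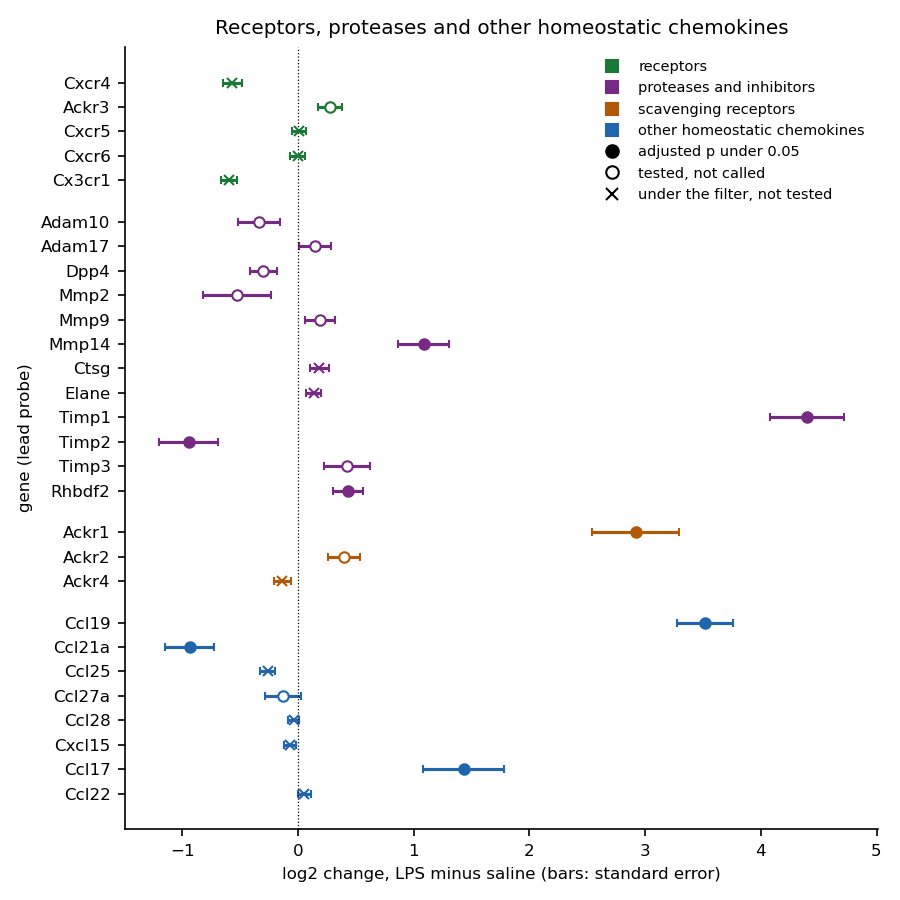
Log2 change (x axis, LPS minus saline, bars for the SE) of the lead probe of each gene in the receptor, protease, scavenging receptor and other homeostatic chemokine lists. Filled circles passed an adjusted p of 0.05, open circles were tested without a call, and crosses were under the background filter; Timp1, Ccl19 and Ackr1 lie furthest to the right at 4.40, 3.52 and 2.92.

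Among the atypical receptors that take up chemokines without signalling, Ackr1, found on venular endothelium and red cells, rose by 2.92 (SE 0.38, limma adjusted p = 0.000741). It read 9.94, 10.47, 8.85 and 8.44 in LPS mice 1 to 4 and 6.48, 6.57, 6.41 and 6.56 in saline mice 1 to 4, of which 2 were above background. Ackr2 had a change of 0.40 (SE 0.14, limma adjusted p = 0.0746; with arrays median-scaled over tested probes, 0.64 and 0.0275) and Ackr4 was not tested. Of this list of 3, 2 were tested and 1 rose.

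Other homeostatic chemokines moved in both directions. Of 8 listed genes 4 were tested, 2 rose, 1 fell and 1 was not called. Ccl19, which guides dendritic cells and T cells through Ccr7, read 10.01, 10.34, 9.58 and 9.08 in LPS mice 1 to 4 and 6.40, 6.00, 6.19 and 6.33 in saline mice 1 to 4. It rose by 3.52 (SE 0.24, limma adjusted p = 2.03e-05), with 1 saline array above background. Ccl21a, another Ccr7 ligand, read 8.18, 8.02, 8.68 and 7.70 with LPS and 9.06, 9.39, 9.14 and 8.72 with saline. It fell by 0.94 (SE 0.21, limma adjusted p = 0.0142), so these ligands of one receptor moved in opposite directions. Ccl21a has near-identical gene copies that a probe may not separate, so its value is uncertain. Ccl17 was above background in no saline heart and was at least 1.90-fold higher with LPS (limma adjusted p = 0.0192), a call lost without saline 2 (limma adjusted p = 0.05024) and without the filter (limma adjusted p = 0.0639). It entered the test through the LPS arrays alone. For that bound, saline values were raised to the dimmest normalized value above background on the same array.

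**Figure D5:**
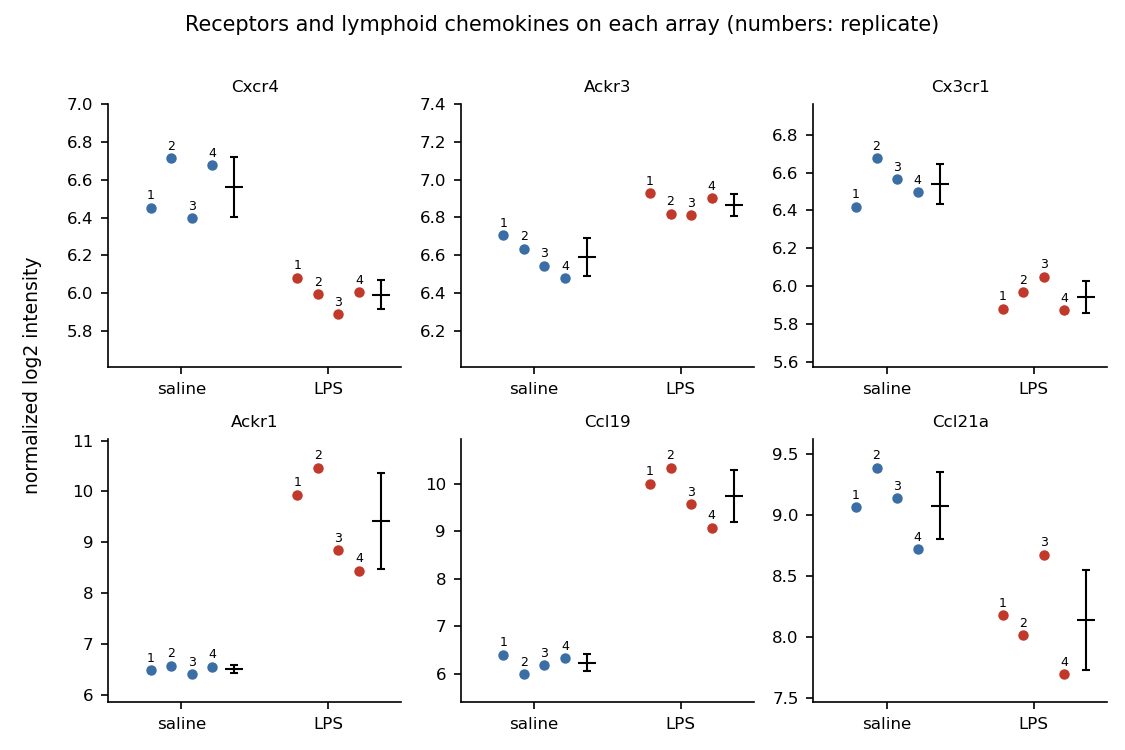
Normalized log2 intensity (y axis; each panel has its own range) of 3 receptors, the scavenging receptor Ackr1 and the chemokines Ccl19 and Ccl21a on each array, with the replicate number above each point and the mean ± SD at the side. Cxcr4, Cx3cr1 and Ccl21a lie lower with LPS, Ackr3, Ackr1 and Ccl19 higher; Cxcr4 and Cx3cr1 stayed under the test's filter.

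Of 14 listed inflammatory chemokines 12 were tested and called higher. Among them Cxcl2, Ccl3, Ccl4 and Ccl5 were above background in no saline heart and passed the filter through the LPS arrays alone, so the count is partly set by the filter. For these 4 the data give bounds, at least 7.503-fold for Cxcl2, 4.33-fold for Ccl3, 5.40-fold for Ccl4 and 18.3-fold for Ccl5. Cxcl5, a neutrophil attractant above background on all 8 arrays, rose by 6.48 (SE 0.56, limma adjusted p = 7.62e-05). Ccl8 lost its call when any array but LPS 3 or saline 1 was left out (limma adjusted p 0.0618 to 0.0809).

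Markers of the cells that make these chemokines also differed between the groups, and their part in the results was not tested. Of 8 endothelial markers 2 fell and 6 were not called. Their mean level, set to 0 in saline, ran from -1.01 to -0.28 with LPS and from -0.16 to 0.18 with saline. The largest fall was that of Egfl7, a secreted vascular factor, at -2.13 (SE 0.31, limma adjusted p = 0.00166). Of 7 tested pericyte and smooth muscle markers 4 fell, led by Rgs5 at -0.69 (SE 0.18, limma adjusted p = 0.0265), with a mean level of -0.65 to -0.36 with LPS and -0.13 to 0.14 with saline. Of 7 tested fibroblast markers 2 fell, led by Lum at -1.005 (SE 0.25, limma adjusted p = 0.0228), and Dcn rose by 0.48 (SE 0.13, limma adjusted p = 0.0287), with mean levels of -0.89 to -0.26 and -0.50 to 0.46. Beside these, the lead probe of Cxcl12 changed by -2.38 (SE 0.36) and that of Egfl7, the most lowered of the 8 endothelial markers, by -2.13 (SE 0.31). Tek, the other called endothelial marker, changed by -1.82, and the 6 not called by -0.85 (Pecam1) to -0.10 (Tie1). The difference between Cxcl12 and any of these markers was not tested.

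Leukocyte markers moved unevenly. Of 6 tested macrophage and monocyte markers 3 fell and none rose, led by C1qc, a complement subunit, at -1.20 (SE 0.31, limma adjusted p = 0.0243). Of those not called, Adgre1 and C1qb each changed by -0.02 and Mrc1 by -0.38. The mean level of the 6 markers ran from -0.86 to -0.27 with LPS and from -0.02 to 0.05 with saline, beside the lower readings of Cx3cr1. Of 6 neutrophil markers on the array 3 were tested, and S100a8 rose by 3.12 (SE 0.36, limma adjusted p = 0.000423). Csf3r was above background in no saline heart and entered the test through the LPS arrays alone, while Mpo, Cxcr2 and Ngp were under the filter. The mean levels of the tested markers were 1.77 to 2.02 against -0.51 to 0.78. Of 7 markers of B cells and follicular dendritic cells only Mfge8, also made by other cells, was tested, at -0.34 (SE 0.14, limma adjusted p = 0.116). Cd79b, Ms4a1, Cr2 and Fcer2a were not above background on any array, and Cd79a was on 2 saline arrays, which sets no level for them. Their relation to the rise of Cxcl13 was not tested.

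The remaining marker lists held no called gene. None of 2 tested T and NK cell markers (mean level -0.03 to 0.17 with LPS, -0.21 to 0.18 with saline), 3 mesothelial and epicardial markers (0.00 to 0.25 and -0.15 to 0.07) and 7 cardiomyocyte markers (-0.64 to -0.24 and -0.36 to 0.34) was called. Adipocyte markers, beside which Cxcl14 can be read since fat also makes it, varied between hearts within both groups. Their mean level ran from -0.65 to 2.13 with LPS and from -0.61 to 0.81 with saline, and none of 3 was called. The 2 tested atrial markers ranged from -4.65 to 3.63 with LPS and from -4.49 to 3.61 with saline, a wide spread within both groups.

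The genes most like each member over the 8 arrays are given as a description, by Pearson's r of lead probes among 8861 genes. They share the arrays and the difference between the groups with the member. For Cxcl12 they were Aatk (r = 0.997), Gdf10 (r = 0.994) and Fez1 (r = 0.993), all called lower, with changes of -0.93, -0.74 and -0.98. For Cxcl13 they were Ly6a (r = 0.981), Ly6f (r = 0.968) and Gpr84 (r = 0.965), with rises of 1.19, 0.85 and 1.62. For Cx3cl1 they were Irf7 (r = 0.993), Pdcd11 (r = 0.988) and Pwp2 (r = 0.983), with rises of 2.26, 0.40 and 1.10. For Cxcl16 they were Pde1b (r = 0.981), Mafg (r = 0.974) and Hspa2 (r = 0.972), of which Hspa2 was called, at 0.57. For Cxcl14 they were Csf2ra (r = 0.996), Pramel12 (r = 0.980) and Mapk1ip1 (r = 0.976), none of them called.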

How the data were processed

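RNA from 8 hearts was measured on 8 spotted 1-colour arrays, 1 per mouse. The deposited scanner files hold intensity of each spot and of its surroundings, exported by GenePix Pro 4.1.1.4 at a gain of 650 without normalization, per the file headers. The deposited value table was not used: 0 of its identifiers matched those of the scanner files, so the alternative based on it could not be run.

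Median intensities were background-corrected by normexp (offset 50), quantile normalized over the gene probes and kept as log2 values, with limma 3.58.1 in R 4.3.3. Spots marked bad were missing, none of them on a member probe. Above background means a signal minus local background above the 95th percentile of 94 negative controls on the same array (25.9 to 40.5 units). Of 35078 gene probes 23017 matched 1 symbol through RefSeq and 12061 matched none. LPS and saline were compared by limma (4.15 of 10.15 degrees of freedom from the prior), with Benjamini-Hochberg adjustment over all tested probes. Pairs of probes were compared by exact permutation over arrays. P-values rest on the spread between arrays, 1 per mouse, which mixes differences between mice with those of array, scan day, array series and sample. The number of arrays limits the precision.

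The members and gene lists were chosen with earlier results of these data known. Named are every member probe, all receptors, proteases and scavenging receptors, the largest called rise and fall of each other list, and the 3 genes most correlated with each member. Genes named beside counts of 5 or fewer, or for being at background, were chosen after their values were seen. In 5 runs on simulated data with 200 changed probes among 14914, the fit called 27.2% of 1.5-fold, 70.1% of 2-fold and 95.5% of 4-fold changes, and 5.18% of its calls were unchanged probes. These runs drew independent noise without scan-day or series effects. They changed far fewer probes than the 17.5% called in the data, so the rates may not carry over. Alternatives covered background, offset, normalization, spot summary, filter, probe choice, array weights, scan day, array series, the redip mark, replicate number and each array left out.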

Additional observations from a re-analysis of the deposited data

Results flagged for a closer look

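Within groups of 4 arrays, 7 of the 104 groups examined (the 11 member probes and the lead probes of the pathway genes, in LPS and in saline) held an array far from the others by Dixon's gap test, where chance gives about 1 in 20. Of these 2 concern Cxcl12. On probe mMA033275 LPS 3 read 11.63 and the other LPS arrays 10.03 to 10.21, and on the dim probe mMC021212 LPS 2 read 7.004 and the others 6.65 to 6.68. Among the other chemokines, Cxcl5 read 10.97 in mouse LPS 3 against 13.68 to 13.89 in the rest of its group, and Ccl11 read 7.18 on saline 3 and 6.70 to 6.75 on the other saline arrays. Adam10 read 8.14 on saline 1 and 7.38 to 7.46 on the others. Cxcr5 read 6.13 on LPS 4 and Cxcr6 read 6.13 on saline 1, both not above background.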

How the results depend on the processing

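The lead probe of Cxcl12 kept its direction under all 27 alternatives, several of which leave its estimate of -2.38 unchanged by design. It lost its call within the first scan day (-2.43, limma adjusted p = 0.0539) and on the unmarked arrays (-1.93, 0.26). Leaving out 1 array gave -2.79 to -2.16. Cxcl13 lost its call without the filter (1.70, 0.05005), within the first scan day (1.73, 0.083) and on the unmarked arrays (1.60, 0.392). It was not tested when 6 arrays above background were required. With the array series as a block only LPS 1 is compared with saline, since the first series held LPS arrays alone. Cxcl13 was then at 0.80, the same as within the second series, so the block is not a separate result. Leaving out 1 array moved it between 1.36 and 2.00. Cx3cl1 lost its call within the first scan day (0.66, 0.0786) and on the unmarked arrays (0.83, 0.271). It was at 0.81 both with the series as a block and within the second series. The lead probe of Cxcl16 lost its call under median scaling over all gene probes (0.75, 0.106), but kept it over the tested probes (0.031). The call was also lost without the filter (1.10, 0.0795), with scan day as a block (0.92, 0.0753) and within the first scan day (0.71, 0.272). It was lost too on the unmarked arrays (1.08, 0.441) and without any 1 of 5 arrays (range over all 8 omissions 0.90 to 1.38). With the series as a block, as within the second series, the change was 1.52. The lead probe of Cxcl14 passed with mean spot brightness (0.93). In these subsets fewer arrays were tested; otherwise the cause was not tested.

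Over all tested probes, 1281 higher and 1326 lower calls became 507 and 1588 under median scaling over all gene probes, 1229 and 1123 when that median was taken over tested probes only, 434 and 256 within the first scan day, 714 and 358 with the series as a block, 802 and 379 within the second series, and 79 and 3 on the unmarked arrays. Leaving out 1 array gave 888 to 1445 higher and 695 to 1614 lower; 695, 745 and 795 were lower without LPS 2, LPS 4 and saline 2. The pathway lists without the inflammatory chemokines held 6 higher and 2 lower genes, 7 and 2 with arrays median-scaled over tested probes (Ackr3 and Ackr2 gained, Rhbdf2 lost), and 5 and 1 to 2 with 1 array left out, 1 without LPS 2, saline 1, saline 2 or saline 4. Directions turned for Cxcl12 mMA033949 (0.0328, median scaling over tested probes) and Cxcl16 mMC000850 (-0.0773, median scaling over all gene probes). Ccl27a turned with 1 array left out (-0.200 to 0.0131). Differences between changes were compared under 10 alternatives only. With 1 array left out 3 of them turned. They were those of the bright Cxcl12 probes (-0.10 to 0.19), of Cxcl13 and Cxcl16 (0.60 with all arrays, -0.0202 to 1.04) and of Cxcl14 and Cx3cl1 (-0.356 to 0.0922). Of the 10 pairs of members 0 passed with all arrays, and 0 to 6 with 1 array left out, 6 of them without LPS 3.

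Same-numbered LPS and saline arrays showed little shared deviation (r = 0.05, -0.13, 0.10 and -0.09), which cannot show whether the mice were paired. With the replicate block 1151 probes were higher and 1090 lower, and all 7 called member probes passed. Signal over background limits the dim probes, receptors among them.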

Other observations

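LPS 3 stood apart from the other LPS arrays in several chemokines. It was the lowest LPS array in 9 of 12 tested inflammatory chemokines, reading 9.09 for Cxcl10 against 12.14 to 12.80 on the others and 12.33 for Cxcl9 against 14.12 to 14.53. It was the highest for Ccl17 (8.69 against 6.79 to 7.11), Ccl3 (9.44 against 8.01 to 8.75), Ccl21a (8.68 against 7.70 to 8.18), Cxcl13 (9.12 against 7.20 to 8.52) and the lead probe of Cxcl12 (11.84 against 9.96 to 10.49).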
